A study of Mus musculus with 6 samples.

Results

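The 38 genes described here mark the endothelium, the cell layer that lines blood and lymphatic vessels. They were chosen by symbol, and all 38 were found among the 21718 genes of the count table. Their levels come from bulk RNA of 6 castration-resistant prostate tumours of mice. All recipients were mice of the same tumour-prone genotype, given 900 rad and donor marrow at the age of 6 weeks. Castration followed at 8 weeks, and the tumours were taken 16 weeks later. In 3 samples, numbered 1, 3 and 4, the marrow donors were F10fl/fl without Cre (the F10-intact group). In the other 3, with the same numbers, the donors were F10fl/fl; LysM-Cre+ (the F10-deleted group). F10 encodes coagulation factor X, and LysM-Cre is active in myeloid cells, so the donor genotype concerns cells derived from marrow. The donors' F10fl/fl alleles were shared by both groups. The labels do not say whether each sample was a separate mouse. P-values therefore measure the spread between these samples, which may be partly technical. The comparison asks how vessel genes of the tumour differ with the donor genotype.

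Endothelial cells are held together by junction proteins such as VE-cadherin and claudin-5, and they are instructed by growth factor receptors, above all the VEGF receptors and the angiopoietin receptor Tie2. Sprouting vessels are led by tip cells, which carry Dll4 and secrete apelin and Esm1. Lymphatic endothelium is set by the transcription factor Prox1 and uses the VEGF receptor Flt4, while inflamed vessels put the selectins Sele and Selp on their surface to catch leukocytes. In a tumour, these vessels supply the growing tissue and let immune cells in.

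Many vessel genes are known to be driven by transcription factors of the ETS family, of which Erg is a member, and of the SOX family, to which Sox7, Sox17 and Sox18 belong. RefSeq promoter sequences (GRCm38.p6) were at hand for 23 of the 38 genes. In the 250 bases before the start, the ETS-type letters AGGAAG occurred, on either strand, in 13 of 23 members (56.5%) and in 32.3% of all 27025 genes with such a sequence. The longer CAGGAAG, which contains AGGAAG, occurred in 9 of 23 (39.1%) against 12.1%, and CCGGAAG in 0 of 23 against 7.83%. The SOX-type letters AACAAT occurred in 4 of 23 (17.4%) against 10.9% and ACAAAG in 6 of 23 (26.1%) against 18.6%. The letters GGG and TTTCC with any 2 bases between them, of the NF-kappaB type, occurred in 0 of 23 against 1.65%. These 6 motifs were chosen with the expression values known, and a match describes letters only. Of the 9 members that carry CAGGAAG, Calcrl, Egfl7, Erg, Notch4 and Robo4 had groups that overlapped. The promoters of the other 4 are shown because Emcn, Cd34 and Apln separated the groups and Sele was high in 1 sample. They lie at chr3:137340828-137341066 (plus strand), chr1:194938571-194938818 (plus strand), chrX:48034854-48035103 (minus strand) and chr1:164047984-164048233 (plus strand), end at or before the annotated start, and run 5′ to 3′ with the CAGGAAG match, or its reverse complement CTTCCTG, in capitals.
Emcn: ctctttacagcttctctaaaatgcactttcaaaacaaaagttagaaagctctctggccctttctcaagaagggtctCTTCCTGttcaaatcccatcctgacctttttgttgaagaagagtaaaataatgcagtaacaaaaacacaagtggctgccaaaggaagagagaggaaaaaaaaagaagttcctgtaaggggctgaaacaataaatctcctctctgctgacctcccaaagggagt
Cd34: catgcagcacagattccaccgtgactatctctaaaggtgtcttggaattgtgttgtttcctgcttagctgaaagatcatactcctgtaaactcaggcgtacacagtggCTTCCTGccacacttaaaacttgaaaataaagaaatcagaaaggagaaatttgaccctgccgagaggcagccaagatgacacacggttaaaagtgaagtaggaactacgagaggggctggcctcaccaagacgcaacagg
Apln: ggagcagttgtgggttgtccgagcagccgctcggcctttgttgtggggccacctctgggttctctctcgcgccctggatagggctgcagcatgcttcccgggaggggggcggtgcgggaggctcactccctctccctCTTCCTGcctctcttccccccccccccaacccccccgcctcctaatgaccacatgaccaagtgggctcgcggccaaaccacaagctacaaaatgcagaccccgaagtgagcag
Sele: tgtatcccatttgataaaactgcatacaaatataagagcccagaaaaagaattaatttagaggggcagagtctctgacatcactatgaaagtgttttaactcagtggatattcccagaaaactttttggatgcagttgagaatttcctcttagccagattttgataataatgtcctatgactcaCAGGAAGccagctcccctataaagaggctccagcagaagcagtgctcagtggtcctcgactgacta

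The samples held 9237308 to 11821588 counts. F10 itself had 2, 6 and 17 counts among F10-intact samples and 7, 4 and 9 among F10-deleted samples, too few to check the labels. On the first principal component (49.1% of variance), F10-intact sample 4 lay far from the other 5. Mitochondrial transcripts took 2.45% to 5.75% of counts in the F10-intact group, with the highest share in sample 4, and 3.14% to 4.58% in the F10-deleted group. Over the whole table, 7 genes rose and 0 fell (edgeR quasi-likelihood test, Benjamini-Hochberg adjusted p under 0.05), and with the replicate number as a block 1 rose and 1 fell. The number called depended on single libraries. Leaving out F10-intact sample 1, 3 or 4 gave 72, 0 or 5, and leaving out F10-deleted sample 1, 3 or 4 gave 1, 18 or 0.

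No endothelial gene passed the test over all genes. A total of 36 of the 38 were abundant enough to be tested, and 0 of these 36 were called by edgeR, where 0.0439% of all 15963 tested genes were called higher and 0% lower. DESeq2 also called 0 of the 36, where it called 2.22% of all genes higher and 0.827% lower. The lowest edgeR adjusted p of a member was 0.280, that of Emcn. At an unadjusted p under 0.05, 7 of 36 members (19.4%) had higher values in the F10-deleted group and 0 had lower values, against 6.15% and 4.74% of all tested genes. The 7 were Emcn, Cd34, Plvap, Cdh5, Aplnr, Tek and Apln. On GRCm38 they lie at chr3:137341067-137432185 (Emcn), chr1:194938819-194961279 (Cd34), chr8:71497765-71511752 (Plvap), chr8:104101625-104144511 (Cdh5), chr2:85136225-85139923 (Aplnr), chr4:94739289-94874976 (Tek) and chrX:48025146-48034853 (Apln). With the replicate number as a block the count was 11 of 36 (30.6%, against 7.64% of all tested genes), the same 7 with Pecam1, Egfl7, Kdr and Erg. The excess over all genes in this count at an unadjusted p under 0.05 depended on single F10-intact libraries. Leaving out sample 3 of that group gave 2 of 36 (5.56%) against 5.19% of all genes, and leaving out sample 4 gave 3 (8.33%) against 5.52%, both near the background. Leaving out sample 1 gave 15 (41.7%) against 7.28%. In the F10-deleted group, leaving out sample 1 gave 4 (11.1%) against 6.85%, leaving out sample 3 gave 4 against 4.53%, and leaving out sample 4 gave 6 (16.7%) against 4.96%.

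The fitted values of the members lay mostly above 0. Of the 36 tested members, 30 (83.3%) had a log2 fold change of F10-deleted over F10-intact (log2 ratio) above 0, where 47.3% of all tested genes did. Their median log2 fold change was 0.49 (quartiles 0.14 and 0.73), and that of all tested genes was -0.02 (quartiles -0.22 and 0.19). Over all 38 members the median was 0.54, also with Sele set at its lower bound. The median of the 38 was 0.73, 0.57 or 0.34 without F10-intact sample 1, 3 or 4. In 9 of 36 tested members (25%) all 3 F10-deleted samples lay above all 3 F10-intact samples, against 8.99% of all tested genes. They were the 7 named above and Ramp2 and Sox7. The opposite order held for 0 members and for 7.67% of all tested genes. Leaving out a sample can only keep or raise the count of members without overlap. With higher F10-deleted values, it was 21 of 36 without F10-intact sample 1 (14.6% of all tested genes). It was 15 without F10-deleted sample 4 (13.2%). Leaving out any other single sample gave 9 to 11, with 9 (25%, against 12.6% of all tested genes) without F10-intact sample 4. The opposite order held for 0 or 1 member in each of these settings. Within the same-numbered pairs, 19 of 36 tested members (52.8%) were higher in the F10-deleted sample of all 3 pairs, against 20% of all tested genes, and 0 were lower in all 3, against 21.2%. Of the 19, 10 had groups that overlapped: Egfl7, Eng, Nos3, Pecam1, Ptprb, Vwf, Kdr, Tie1, Erg and Dll4.

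**Figure D1:**
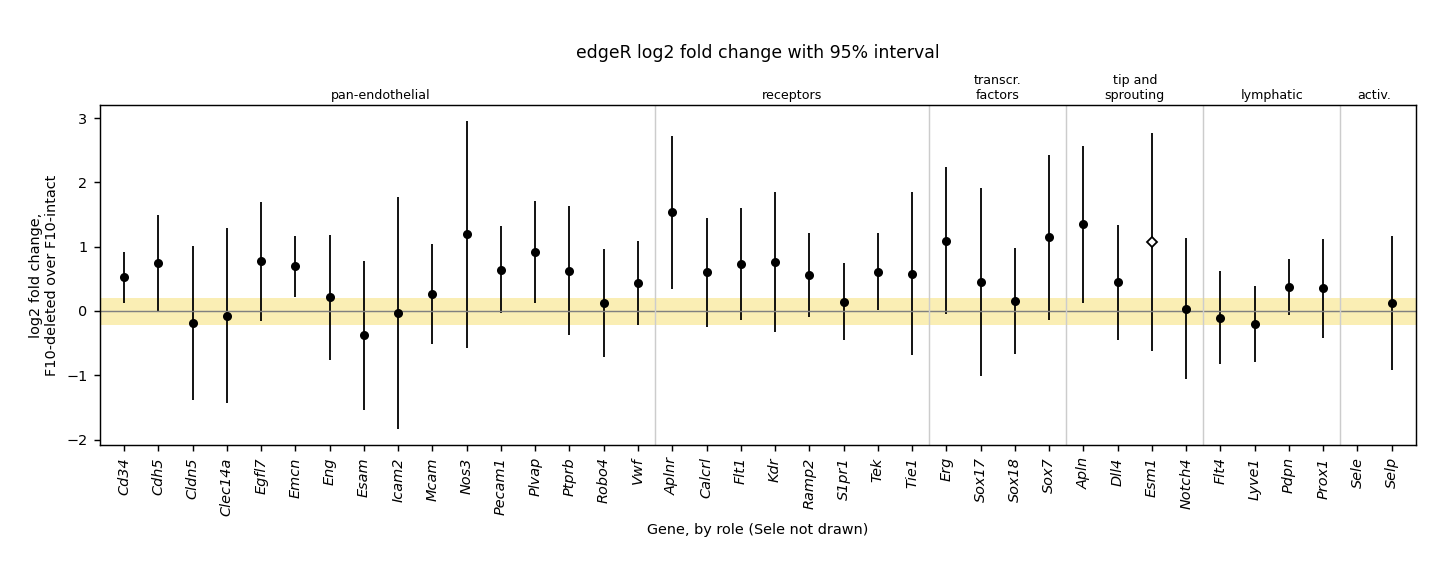
The edgeR log2 fold change of each endothelial gene (F10-deleted over F10-intact, vertical axis) is plotted with its 95% interval, with genes grouped by role. The yellow band spans the quartiles of all tested genes, the open diamond marks Esm1, which was fitted without the filter, and Sele is not drawn. Most points lie above the band, and most intervals cross 0.

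The spread among the F10-intact samples was the main feature of the member levels. F10-intact sample 4 was the lowest of the 6 samples for 28 of the 38 members, and F10-intact sample 1 was the highest of its own group for 32. Relative to the F10-intact mean, the members averaged 0.46, 0.02 and -0.49 log2 units in F10-intact samples 1, 3 and 4. They averaged 0.61, 0.54 and 0.38 in F10-deleted samples 1, 3 and 4. The F10-deleted samples thus lay close together (SD 0.116, n = 3) and the F10-intact samples far apart (SD 0.477, n = 3), and F10-intact sample 1 fell inside the range of the F10-deleted samples. The summed level of the 38 genes was 368, 275 and 186 CPM (counts scaled to library size) among F10-intact samples and 383, 374 and 340 CPM among F10-deleted samples. In whole tissue, fewer endothelial cells and less RNA per cell cannot be told apart.

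**Figure D2:**
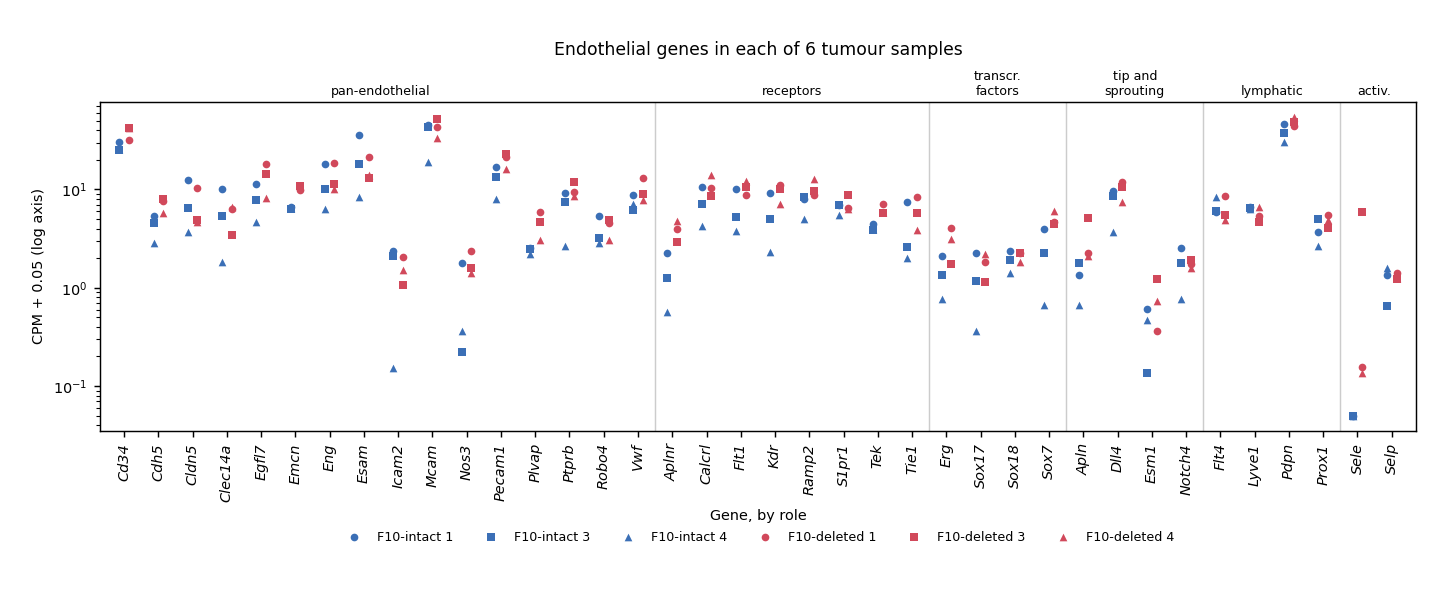
Each endothelial gene is plotted by its level in every sample (CPM + 0.05, log axis), in blue for F10-intact and red for F10-deleted samples, with the marker shape giving the sample number. The blue triangle, F10-intact sample 4, is the lowest point for 28 of the 38 genes.

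Per kilobase of exon, the most abundant members were Pdpn and Mcam. Pdpn, a mucin-like protein of lymphatic vessels that fibroblasts and basal epithelium also make, averaged 23.9 CPM per kb over the 6 samples, and Mcam, an adhesion protein of endothelium and mural cells, averaged 11.7 CPM per kb. Neither is limited to endothelium. Next on the same scale came Esam at 6.42, Cldn5 at 4.98 and Cd34 at 4.49 CPM per kb, and the general vessel markers Pecam1 and Cdh5 stood at 2.64 and 1.34 CPM per kb. At the low end were Notch4 at 0.207, Esm1 at 0.257 and Selp at 0.272 CPM per kb. Counts behind a member's value in a single sample ranged from 0 to 645, so that low members rest on few reads.

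Among the 16 pan-endothelial surface, junction and secreted genes, 12 had a log2 fold change above 0, 4 were higher at an unadjusted p under 0.05 and 0 passed the adjusted test. Of all tested genes, 47.3% lay above 0, and 6.15% were higher and 4.74% lower at that unadjusted p. The counts by role and by list below are to be read beside these shares. Emcn, a sialomucin of capillary and venous endothelium, had 6.55, 6.34 and 6.43 CPM among F10-intact samples 1, 3 and 4 and 9.87, 10.7 and 10.7 CPM among F10-deleted samples 1, 3 and 4. It was the tightest of the separated genes in the F10-intact group, and F10-intact sample 4 did not stand low in it. Its mean was 6.44 ± 0.105 CPM against 10.4 ± 0.482 CPM (SD, n = 3 each), a log2 ratio of 0.69 (95% interval 0.22 to 1.17, edgeR adjusted p = 0.280). That value stayed between 0.68 and 0.76 over every alternative tried.

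Cd34, a sialomucin of endothelium that fibroblasts and blood progenitors also carry, had 30.1, 24.9 and 25.5 CPM among F10-intact samples. In the F10-deleted samples it had 31.6, 42.0 and 42.0 CPM. The groups did not overlap, though the gap between F10-intact sample 1 and F10-deleted sample 1 was small, and the log2 ratio was 0.52 (SE 0.17, adjusted p = 0.316 by edgeR). Plvap, the diaphragm protein of fenestrated capillaries, had 2.49, 2.40 and 2.18 CPM against 5.88, 4.57 and 2.98 CPM in the same order. Its F10-intact samples lay close together, and its log2 ratio was 0.92 (SE 0.34, adjusted p = 0.386 by edgeR).

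Cdh5, the VE-cadherin of endothelial junctions, had 5.35, 4.46 and 2.80 CPM among F10-intact samples and 7.67, 7.87 and 5.71 CPM among F10-deleted samples. All 3 F10-deleted values were above the F10-intact ones, at a log2 ratio of 0.75 (SE 0.32, adjusted p = 0.454 by edgeR). Pecam1, the junction protein CD31, had 17.0, 13.5 and 7.98 CPM against 21.2, 22.8 and 16.1 CPM. Here F10-intact sample 1 exceeded F10-deleted sample 4, so the groups overlapped, and the log2 ratio was 0.64 (SE 0.29, adjusted p = 0.482 by edgeR).

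Of the other pan-endothelial genes with values above 0, Egfl7, a secreted vessel matrix protein, was at a log2 ratio of 0.77, Ptprb, the phosphatase VE-PTP, at 0.63, and Vwf, the platelet-binding von Willebrand factor, at 0.44. Nos3, the endothelial nitric oxide synthase, was at 1.19 with a 95% interval of -0.57 to 2.96, and had 19, 2 and 3 counts among F10-intact samples and 22, 18 and 16 among F10-deleted samples. The groups overlapped in all 4 genes, with edgeR adjusted p from 0.543 to 0.654, while each of the 4 was higher in the F10-deleted sample of all 3 pairs. Egfl7 had the lowest blocked edgeR adjusted p of these, 0.207. The exons of Nos3 overlap those of Atg9b on the other strand, and those of Egfl7 overlap Agpat2. Eng, a TGF-beta co-receptor, overlaps Fpgs in the same way. Because the strand setting of the counting is not given in the sources used here, reads of such pairs cannot be assigned with certainty. Atg9b was itself higher in all 3 F10-deleted samples, at a log2 ratio of 0.92.

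A second set of pan-endothelial genes lay near or below 0. Esam, an adhesion protein of endothelial junctions, had 35.9, 18.1 and 8.29 CPM among F10-intact samples and 21.1, 13.0 and 14 CPM among F10-deleted samples. Cldn5, the tight junction protein claudin-5, had 12.5, 6.43 and 3.63 CPM against 10.4, 4.82 and 4.61 CPM. In both genes sample 1 was the highest of each group, and the F10-deleted values lay within the F10-intact range. Their log2 fold changes were -0.38 (95% interval -1.53 to 0.78) for Esam and -0.19 (-1.39 to 1.00) for Cldn5, with edgeR adjusted p of 0.844 and 0.934.

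Clec14a, a lectin-like surface protein, ranged from 1.76 to 10.1 CPM in the F10-intact group and from 3.38 to 6.65 CPM in the F10-deleted group. Icam2, a leukocyte ligand, had 25, 24 and 1 counts against 19, 12 and 17 counts, with a single read in F10-intact sample 4. The log2 fold changes were -0.07 and -0.03, with 95% intervals that reach past 1 in each direction. Esam, Cldn5, Clec14a and Icam2 all turned above 0 without F10-intact sample 1, at 0.30, 0.41, 0.63 and 0.43. Robo4, a guidance receptor of quiet endothelium, Eng and Mcam were at 0.13, 0.21 and 0.26, and at -0.04, -0.08 and -0.04 without F10-intact sample 4.

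All 8 receptor genes had values above 0 (47.3% of all tested genes did), with a median log2 ratio of 0.61, and 0 passed the adjusted test. Aplnr, the receptor of apelin, had 2.21, 1.20 and 0.518 CPM among F10-intact samples and 3.89, 2.88 and 4.78 CPM among F10-deleted samples. The groups did not overlap, and the log2 ratio of 1.53 (SE 0.51, adjusted p = 0.328 by edgeR) was the highest of the 36 tested members. It rests on 5 to 24 counts per F10-intact sample and was 1.17 without F10-intact sample 4. Tek, the angiopoietin receptor Tie2, had 4.43, 3.77 and 3.94 CPM against 7.14, 5.67 and 5.80 CPM. As in Emcn, F10-intact sample 4 was not the lowest, and the log2 ratio was 0.61 (SE 0.26, adjusted p = 0.447 by edgeR).

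Ramp2 and Calcrl encode the 2 parts of the adrenomedullin receptor. Ramp2 had 7.94, 8.23 and 4.98 CPM among F10-intact samples and 8.82, 9.64 and 12.6 CPM among F10-deleted samples, without overlap. Calcrl had 10.4, 7.03 and 4.15 CPM against 10.3, 8.54 and 14 CPM, with overlap through F10-intact sample 1. Both were highest in F10-deleted sample 4, and their log2 fold changes were 0.55 and 0.60 (edgeR adjusted p = 0.536 and 0.615). Ramp2 shares exon sequence with Vps25 on the same strand, a gene given only 66 counts over the 6 samples, so its reads are not certain to be its own.

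The VEGF receptors followed the general spread. Kdr, the main signalling receptor of VEGF-A, had 9.14, 4.97 and 2.28 CPM among F10-intact samples and 10.9, 10.1 and 6.99 CPM among F10-deleted samples. Flt1, the VEGF receptor that also acts as a decoy, had 10.1, 5.14 and 3.73 CPM against 8.82, 10.6 and 12 CPM. F10-intact sample 1 overlapped the F10-deleted group in both, and the log2 fold changes were 0.77 and 0.73 (edgeR adjusted p = 0.617 and 0.542). Tie1, the partner receptor of Tek, was at 0.58, and S1pr1, the sphingosine 1-phosphate receptor of vessels and lymphocytes, at 0.15 (edgeR adjusted p = 0.763 and 0.896).

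All 4 transcription factors had values above 0, as did 47.3% of all tested genes. Only Sox7 separated the groups, where 8.99% of all tested genes did so with higher F10-deleted values. Sox7 had 3.88, 2.23 and 0.622 CPM among F10-intact samples and 4.62, 4.4 and 5.97 CPM among F10-deleted samples, a log2 ratio of 1.14 (SE 0.56, adjusted p = 0.516 by edgeR). Erg, the ETS factor of endothelium, had 2.03, 1.29 and 0.726 CPM against 3.99, 1.69 and 3.07 CPM, a log2 ratio of 1.09 (SE 0.50, adjusted p = 0.482 by edgeR). F10-deleted sample 3 lay below F10-intact sample 1 in Erg. Sox17, an arterial factor, was at 0.44 and Sox18, a factor of vessel and lymphatic development, at 0.15, with 95% intervals of -1.02 to 1.91 and -0.67 to 0.98. Whether the 3 SOX genes differ from each other in their response was not tested.

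Of the 4 tip and sprouting genes, Apln separated the groups, where 8.99% of all tested genes did so with higher F10-deleted values. Apln, the ligand of Aplnr, had 1.29, 1.71 and 0.622 CPM among F10-intact samples and 2.21, 5.08 and 2.05 CPM among F10-deleted samples. F10-deleted sample 3 held the highest value, and the log2 ratio was 1.35 (SE 0.53, adjusted p = 0.413 by edgeR), or 0.82 without that sample. Dll4, the Notch ligand of tip cells and arteries, had 9.69, 8.49 and 3.63 CPM against 11.9, 10.7 and 7.33 CPM and overlapped, at 0.45 (edgeR adjusted p = 0.740). Esm1, a secreted proteoglycan of tip cells, had 6, 1 and 4 counts against 3, 14 and 8 counts and was too low to be tested. Notch4, a Notch receptor of endothelium, was at 0.03, and at -0.31 without F10-intact sample 4.

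The lymphatic genes did not separate the groups in any of 4 members. Of all tested genes, 8.99% separated with higher and 7.67% with lower F10-deleted values, so 0 of 4 is near the background. Prox1, the factor that sets lymphatic identity, had 3.60, 4.97 and 2.59 CPM among F10-intact samples and 5.46, 3.98 and 4.86 CPM among F10-deleted samples. Lyve1, a hyaluronan receptor of lymphatic vessels and some macrophages, had 6.55, 6.43 and 6.22 CPM against 5.36, 4.65 and 6.65 CPM. Flt4, the VEGF-C receptor, had 5.81, 6.00 and 8.40 CPM against 8.51, 5.41 and 4.86 CPM. The log2 fold changes were 0.35, -0.20 and -0.11, with 95% intervals of -0.42 to 1.12, -0.79 to 0.38 and -0.83 to 0.61, so a change of 2-fold lay outside the interval of Lyve1 and Flt4. Flt4 was highest in F10-intact sample 4 within its group, the library in which most blood vessel members were lowest, and its log2 fold change was 0.08 when that sample was left out. Leaving out F10-deleted sample 3 or 4 gave 0.02 or 0.04. Pdpn had 46.0, 37.2 and 30.2 CPM against 43.9, 48.0 and 55.0 CPM, a log2 ratio of 0.37 (edgeR adjusted p = 0.528).

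As a role, the lymphatic genes averaged 0.04, 0.07 and -0.11 log2 units from the mean of the F10-intact group in F10-intact samples 1, 3 and 4, and 0.22, -0.05 and 0.14 among F10-deleted samples. The other 34 members averaged 0.51, 0.02 and -0.53 among F10-intact samples and 0.65, 0.61 and 0.41 among F10-deleted samples. The span within the F10-intact group was thus narrower for the 4 lymphatic members, which are few and include the widely made Pdpn. Within the role, Pdpn and Prox1 were lowest of the 6 samples in F10-intact sample 4. No test of the difference between these lists was made. In a second lymphatic list of 13 genes, 11 were tested, 6 had values above 0, 2 were higher at an unadjusted p under 0.05 and 0 passed the adjusted test, with a median log2 ratio of 0.05. The 12 of them in the count table averaged 0.25, 0.14 and -0.38 log2 units among F10-intact samples. Among F10-deleted samples they averaged 0.47, 0.08 and 0.03. The narrow span of the 4 members was thus not shared by this list. Gja1, the gap junction protein connexin-43 that many cell types make, had 45.9, 40.5 and 36.0 CPM against 62.8, 64.3 and 58.6 CPM, a log2 ratio of 0.60 (SE 0.14, adjusted p = 0.177 by edgeR). Tbx1, a T-box factor, had 1.48, 1.03 and 0.415 CPM against 5.15, 2.28 and 1.54 CPM, a log2 ratio of 1.58 (SE 0.61, adjusted p = 0.401 by edgeR). Neither gene overlapped between the groups. The chemokine Ccl21a of lymphatic vessels, which has near-identical gene copies, was at 36.5, 27.3 and 41.3 CPM against 32.8, 17.1 and 15.8 CPM, a log2 ratio of -0.68 (SE 0.31, adjusted p = 0.482 by edgeR).

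**Figure D3:**
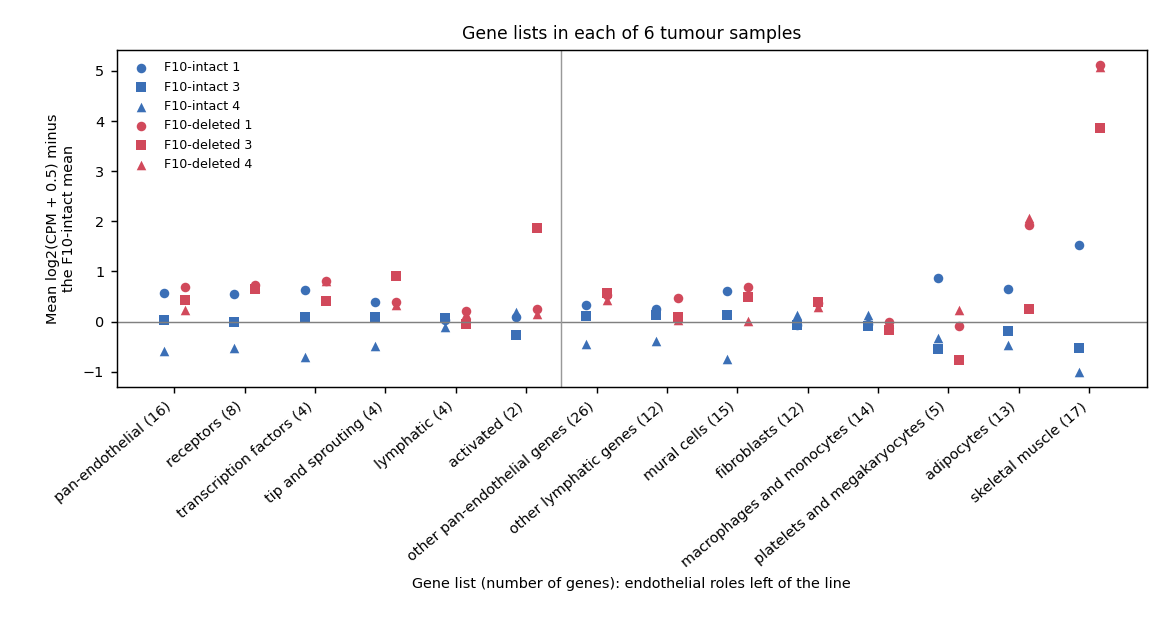
The mean log2(CPM + 0.5) of each list, minus its F10-intact mean, is plotted for the 6 samples, with the roles of the 38 genes left of the line and other lists right of it. In the pan-endothelial, receptor, transcription factor, tip, other lymphatic and mural lists F10-intact sample 1 is the highest and sample 4 the lowest of the blue points. The lymphatic role lies between -0.11 and 0.22.

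The activated genes gave one value that stood apart. Sele, E-selectin, which cytokine-treated endothelium makes to capture leukocytes, had 0 counts in each F10-intact sample and 1, 69 and 1 counts in F10-deleted samples 1, 3 and 4. F10-deleted sample 3 thus held 97.2% of the 71 counts of its group, at 5.84 CPM, with a 95% Poisson interval of 53.7 to 87.3 counts that covers counting error only. The other 5 samples were each at or under 1 count, below a floor of 3 counts, which is 0.256 to 0.315 CPM in those libraries. Over the group, Sele was at least 23.0-fold higher than that floor taken once over the F10-intact group, and without sample 3 both groups were under it. Selp, P-selectin, which platelets also carry, had 14, 7 and 15 counts against 13, 14 and 14 counts, with F10-deleted sample 3 level with the others of its group.

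F10-deleted sample 3 held 15 genes with at least 50 counts and at least 10 times the count of every other sample, a rule made after the Sele value was seen. The other samples held 0 to 4 such genes. Besides Sele, the 15 included Upk3b, a uroplakin of urothelium, Aqp3, an aquaporin, Snx31, Fmo5, Gjb6 and Cyp1a1. In a list of 14 genes of endothelial activation and haemostasis, 9 had values above 0, 2 were higher and 1 lower at an unadjusted p under 0.05, and 0 passed the adjusted test. Vcam1, a leukocyte adhesion molecule, had 15.6, 16.7 and 12.2 CPM against 20.2, 25.1 and 27.9 CPM, a log2 ratio of 0.72 (SE 0.20, adjusted p = 0.248 by edgeR). Edn1, the vasoconstrictor endothelin-1, was at -0.60 ± 0.22 (SE, edgeR adjusted p = 0.380). F10-deleted sample 3 was neither the highest nor the lowest of its group in Vcam1.

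Angiogenic ligands and co-receptors were read from a list of 26 genes, of which 23 were tested. In it 14 had values above 0, 1 was higher and 1 lower at an unadjusted p under 0.05, 0 passed the adjusted test, and the median log2 fold change was 0.06. Thbs1, a matrix inhibitor of angiogenesis, had 193, 209 and 149 CPM against 235, 288 and 294 CPM, a log2 ratio of 0.57 (SE 0.17, adjusted p = 0.283 by edgeR). Vegfa, the main ligand of Kdr, had 49.9, 44.9 and 57.6 CPM against 74.8, 58.5 and 62.8 CPM. The groups of Vegfa did not overlap, at 0.36 ± 0.16 (SE, edgeR adjusted p = 0.459), and F10-intact sample 4 was the highest of its group in it. Pdgfd, a ligand of the PDGF receptor on mural cells, was at -0.50 ± 0.20 (SE, edgeR adjusted p = 0.432).

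Of 12 genes of the Notch pathway, 11 had values above 0, 3 were higher at an unadjusted p under 0.05 and 0 passed the adjusted test, with a median log2 ratio of 0.31. Nrarp, a feedback target of Notch, had 15.8, 12 and 7.15 CPM against 21.4, 28.7 and 21.4 CPM, a log2 ratio of 1.03 (SE 0.29, adjusted p = 0.263 by edgeR). Notch2 was at 0.52 and the ligand Jag1 at 0.42 (edgeR adjusted p = 0.241 and 0.458). These genes are also made by epithelium, so their source in whole tumours is not given by these data.

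In a second list of 26 pan-endothelial genes outside the 38, 24 were tested and 18 had values above 0. Of these 24, 8 were higher and 0 lower at an unadjusted p under 0.05, 0 passed the adjusted test, and the median log2 fold change was 0.60. Ecscr, an endothelial surface protein, had 7.66, 9.43 and 7.05 CPM against 12, 15.2 and 15.9 CPM, a log2 ratio of 0.84 (SE 0.22, adjusted p = 0.233 by edgeR). Cd93, a surface lectin of endothelium and myeloid cells, was at 0.67 ± 0.22, and Ets1, an ETS factor that lymphocytes also make, at 0.70 ± 0.16 (SE, edgeR adjusted p = 0.318 and 0.174). The list averaged 0.32, 0.11 and -0.44 log2 units from the mean of the F10-intact group in F10-intact samples 1, 3 and 4 and 0.53, 0.57 and 0.42 among F10-deleted samples, the same order of F10-intact samples as in the 38 genes.

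Taking the mean of those 24 tested genes in each sample as a reference removes much of the shared spread. It adds spread to members that lacked it: Emcn was at -0.38, -0.19 and 0.40 among F10-intact samples and 0.03, 0.11 and 0.23 among F10-deleted samples, and so overlapped. The reference itself lay 0.40 to 0.53 log2 units above its F10-intact mean in the F10-deleted samples, which lowers every gene there. On this scale, chosen after the values were seen, the median difference between the groups over the 38 genes was 0.03 log2 units, with 22 members above 0 and 16 below. The groups did not overlap for 2 members with higher and 3 with lower values, where 1.90% of all tested genes were higher and 30.3% lower in this sense. Aplnr was higher, at -1.76, -2.20 and -2.37 log2 units against the reference among F10-intact samples and -1.22, -1.63 and -0.85 among F10-deleted samples. Cdh5 was also higher, by a gap of little size, with its highest F10-intact value at -0.65 and its lowest F10-deleted value at -0.62. Lyve1, Sox18 and Notch4 were lower, with differences of -0.68, -0.33 and -0.35 log2 units. No test was made on this scale.

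**Figure D4:**
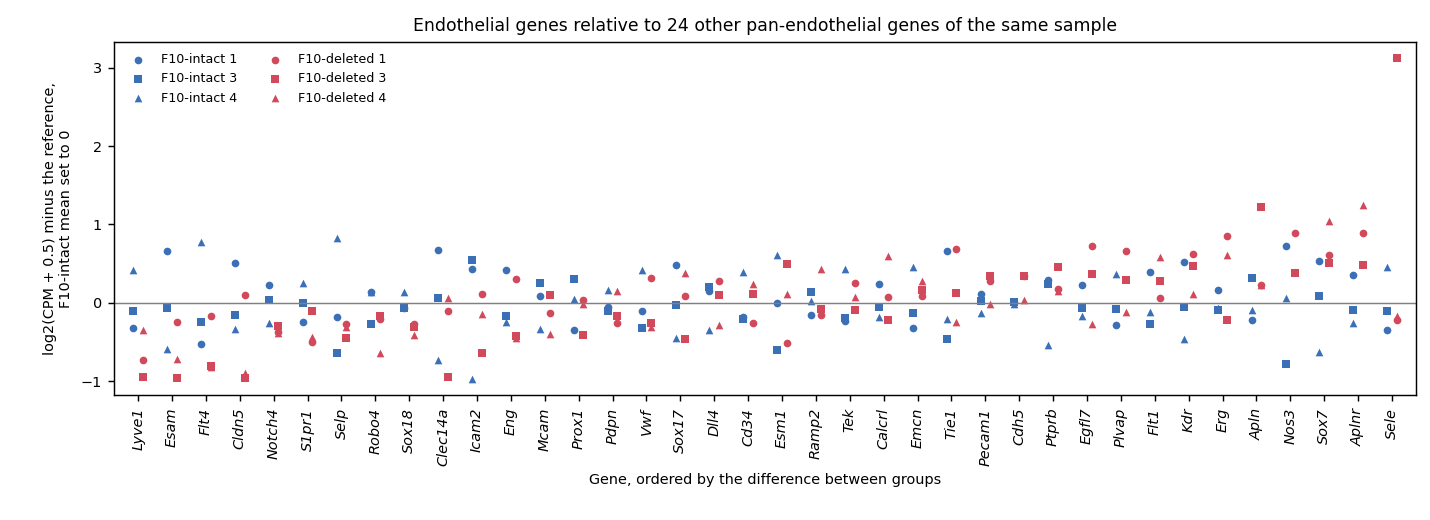
Each endothelial gene is plotted as log2(CPM + 0.5) minus the mean of 24 other pan-endothelial genes in the same sample, with the F10-intact mean of the gene set to 0 and genes ordered by the difference between groups. Lyve1 lies at the low end at -0.68, with Aplnr near the high end at 0.87, while the single high point of Sele is F10-deleted sample 3.

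Genes of other cell types moved beside the vessel genes. The mural cell list, for pericytes and smooth muscle that wrap vessels, averaged 0.61, 0.13 and -0.74 log2 units in F10-intact samples 1, 3 and 4 and 0.68, 0.49 and 0.00 among F10-deleted samples, and its sum was 985 to 3495 CPM and 1545 to 2778 CPM in the groups. The skeletal muscle list, a tissue rich in capillaries, summed to 24.4 to 202 CPM in the F10-intact group and 1098 to 2648 CPM in the F10-deleted group. All 17 of its genes lay without overlap and 16 of 17 were higher at an unadjusted p under 0.05. The adipocyte list summed to 125 to 198 CPM and 186 to 325 CPM, with 1 of 11 tested genes not overlapping. Of these 11, 9 had values above 0, 4 were higher and 0 lower at an unadjusted p under 0.05, and 0 passed the adjusted test. The median log2 ratio was 2.38. By mean log2 level the list stood at 0.64, -0.18 and -0.46 among F10-intact samples and 1.92, 0.26 and 2.07 among F10-deleted samples, with overlap through F10-deleted sample 3. The fibroblast list averaged -0.07, -0.06 and 0.13 log2 units in F10-intact samples 1, 3 and 4 and 0.37, 0.40 and 0.29 among F10-deleted samples, without overlap. Of its 12 genes, 9 had values above 0, 4 were higher and 1 lower at an unadjusted p under 0.05, 0 passed the adjusted test, and the median log2 ratio was 0.34. The collagens Col1a1 and Col1a2 were at 1.21 and 0.89 and the matrix protein Postn at 0.90 (edgeR adjusted p = 0.0868, 0.0846 and 0.110). Within the F10-intact group, sample 1 was the highest over the 38 vessel genes and in the mural, muscle and adipocyte lists by mean log2 level. Within the F10-deleted group, sample 3 was the lowest in muscle and adipocyte genes. Over the 38 vessel genes it was not the lowest, at 0.54 against 0.38 in sample 4. It was the lowest in the receptor, transcription factor and lymphatic roles and in the list of capillary genes of fat and muscle. The part of these tissues in the vessel gene values was not tested.

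Capillary genes of fat and muscle held the one called gene among the lists used here. Of 12 genes, 8 were tested and 1 rose. Fabp4, a fatty acid carrier of capillaries, adipocytes and macrophages, rose from 14.9, 13.0 and 9.75 CPM to 101, 115 and 141 CPM, a log2 ratio of 3.24 (SE 0.21, adjusted p = 0.00741 by edgeR). The size held but the call did not with the replicate block (edgeR adjusted p = 0.0670) or when F10-intact sample 3 (0.184) or F10-deleted sample 4 (0.0649) was left out. Cd36, a fatty acid transporter of the same cells, had 7.94, 7.97 and 7.88 CPM against 26.3, 9.39 and 26.8 CPM, a log2 ratio of 1.39 (SE 0.38, adjusted p = 0.250 by edgeR). F10-deleted sample 3 stood near the F10-intact level in Cd36 and not in Fabp4. Fabp5, an epidermal-type carrier, was at -1.59 ± 0.48 (SE, edgeR adjusted p = 0.301).

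Arterial and venous genes gave 10 of 13 tested values above 0, with 2 higher at an unadjusted p under 0.05, 0 past the adjusted test and a median log2 ratio of 0.18. Efnb2, the arterial ephrin that epithelium also makes, was at 0.53 ± 0.14 and Ephb4, its venous receptor, at 0.48 ± 0.27 (SE, edgeR adjusted p = 0.219 and 0.579). Platelet genes were low: 5 of 11 were analysed here and 4 tested, 1 of them above 0, and the list summed to 8.66 to 26.4 CPM in the F10-intact group and 6.60 to 24.7 CPM in the F10-deleted group. Macrophage genes had 3 of 12 tested values above 0 and a median of -0.20, lymphocyte genes 4 of 10 and a median of -0.02, and prostate epithelial genes 6 of 12 and a median of -0.01.

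**Figure D5:**
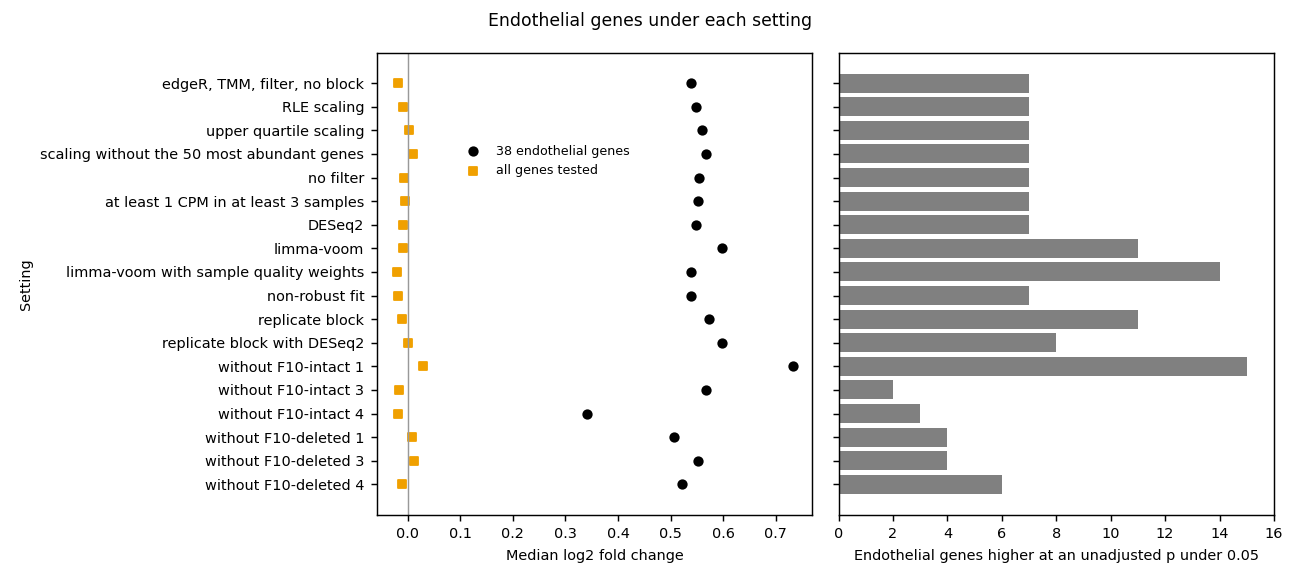
The left panel gives the median log2 ratio of the 38 endothelial genes (black) and of all tested genes (orange squares) under each setting, and the right panel gives how many endothelial genes were higher at an unadjusted p under 0.05. The endothelial median ranges from 0.34 without F10-intact sample 4 to 0.73 without F10-intact sample 1, and the count from 2 to 15.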

How the data were processed

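Poly-A RNA of 6 tumours was read in 120-base single-end runs from strand-specific libraries, as the labels' protocols state. The authors deposited raw counts per Ensembl gene. Per the submitters' processing notes, STAR 2.7.10a and build GRCm38 were used, and DESeq2 is named without a version. No source used here names the counting program, its strand setting or the annotation release. Symbols, coordinates and merged exon lengths came from GENCODE M21 (GRCm38), which matched 21605 of 21718 identifiers.

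The deposited counts were tested with the edgeR quasi-likelihood method (edgeR 4.0.16, R 4.3.3, robust, TMM factors) after filterByExpr at a minimum count of 10, with Benjamini-Hochberg adjustment over 15963 genes and a threshold of 0.05. CPM values use the TMM factors. Sample levels of lists are means of log2(CPM + 0.5). Members under the filter have fold changes from the unfiltered fit. Alternatives used DESeq2 1.42.0 and limma 3.58.1. The tests were checked on simulated data. The members, their roles and the other lists were chosen with earlier results of these data known. All members are named. The genes named from other lists are among the 3 with the smallest p in their list, and not all such genes are printed. Further genes (Atg9b, Upk3b, Aqp3, Snx31, Fmo5, Gjb6 and Cyp1a1) were named after their values were seen. The recipients' genotype is not reported here.

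The sample titles number each group's samples 1, 3 and 4. After subtracting each group's mean, same-numbered samples correlated across genes at 0.350, 0.135 and 0.181. Differently numbered samples correlated at -0.247 to 0.0682. Subtracting means of 3 samples ties these values to each other, so they are weak ground for a pairing. The labels state no shared animal or day, so the reported fit has no block. The replicate block and the same-numbered pairs are given beside it. Pairs of the same group differed beyond sampling noise (chi-square per degree of freedom from 24.4 to 84.3).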

Additional observations from a re-analysis of the deposited data

How the results depend on the processing

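Over 17 alternatives, 0 endothelial genes were called, and the lowest edgeR, DESeq2 or limma adjusted p of a member in any of them was 0.0973. The median of the 38 genes ranged from 0.34 to 0.73, with both ends from leaving out 1 F10-intact sample. The members higher at an unadjusted p under 0.05 numbered 7 in the reported fit, 11 with limma-voom, 14 with its sample quality weights, 11 with the replicate block, and 2 to 15 with 1 sample left out. Genes called over the whole table numbered 7, but 487 with DESeq2, 520 with the replicate block in DESeq2 (chosen after seeing the data), 175 with limma-voom sample weights, 2 with limma-voom, 2 with at least 1 CPM in at least 3 samples, 3 without robust fitting, 2 with the replicate block, and 0 to 72 with 1 sample left out. The replicate block changed no call of a member. It ended that of Fabp4 in edgeR (adjusted p = 0.0670) and not in DESeq2 (adjusted p = 6.91e-32). With the block, Icam2 turned to 0.22 and Clec14a to 0.10 (0.48 and 0.14 with DESeq2), and with limma-voom they were 0.60 and 0.14.

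Of the 38 genes, 26 kept their direction under every alternative, 25 of them above 0, and 12 turned in at least 1. With 1 sample left out, the log2 fold changes of those 12 ranged from -0.64 to 0.41 for Cldn5, -0.50 to 0.63 for Clec14a, -0.082 to 0.73 for Eng, -0.75 to 0.30 for Esam, -0.35 to 0.076 for Flt4, -0.56 to 0.43 for Icam2, -0.040 to 0.49 for Mcam, -0.31 to 0.48 for Notch4, -0.039 to 0.48 for Robo4, -0.0021 to 0.25 for S1pr1, -0.19 to 0.40 for Selp and -0.024 to 0.37 for Sox18. The cause was not tested. Depth limits Esm1, Sele, Nos3, Sox17 and Icam2, which had samples with 3 or fewer counts.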
